A study of Mus musculus with 18 samples.

Results

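The genes described here encode the tubulins, the building blocks of microtubules, and vimentin, an intermediate filament protein. They were chosen by name, as the rows Tuba1a, Tuba1b, Tuba1c, Tuba4a, Tubb2a, Tubb2b, Tubb4b, Tubb5, Tubb6 and Vim of a liver gene table. The choice was made with earlier results of these data known, and all 10 were among the 16245 genes listed. The livers came from wild-type male mice of the strain C57BL/6 (C57BL/6J in the study's methods). From 8 weeks of age the mice were kept at about 29 °C. They were fed an obesogenic NASH diet, rich in fat (mostly palm oil) and fructose and containing some cholesterol. The vehicle, GDF15 and pair-fed groups held 6 mice each, and all 3 groups shared the genotype, diet, temperature and single housing. Recombinant GDF15, a stress cytokine that lowers food intake, was injected under the skin each morning. Pair-fed mice were given daily what the matching GDF15-treated mice had eaten, so that comparing them with GDF15-treated mice asks what differs when food intake is matched. The labels name several doses and do not say which one each mouse received. For the sequenced livers the study gives different doses in its text and in a figure legend.

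Alpha- and beta-tubulin pair as heterodimers that assemble end to end into microtubules, the tracks for vesicle and organelle transport and the fibres of the mitotic spindle. Mammals carry several genes, or isotypes, for each subunit, and hepatocytes use microtubules to secrete lipoproteins and plasma proteins and to deliver membrane proteins to the bile canaliculus. Cells lower their tubulin messenger RNAs when free tubulin dimers accumulate, a form of autoregulation. Vimentin forms the filaments of mesenchymal cells, and in liver it is known from stellate cells, fibroblasts, endothelium and leukocytes, while hepatocyte filaments are made of keratins 8 and 18.

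The 4 alpha-tubulin genes, numbered in mouse build GRCm38, included a cluster on chromosome 15. Tuba1b lay at chr15:98931425-98934565 on the minus strand, Tuba1a at chr15:98949837-98953703 on the minus strand and Tuba1c at chr15:99029891-99038110 on the plus strand. Tuba4a lay apart, at chr1:75214228-75219865 on the minus strand. Among the 5 beta-tubulin genes, Tubb2a (chr13:34074274-34078007) and Tubb2b (chr13:34126748-34130466) were neighbours on the minus strand. Tubb4b was at chr2:25222160-25224702 and Tubb5 at chr17:35833921-35838306, both on the minus strand. The position of Tubb6 is not given here. Vim was at chr2:13573927-13582826 on the plus strand. The identity of the reads matters within these families. Of the distinct 31-base words in its transcripts, 77% for Tuba1a, 68.9% for Tuba1b and 55.3% for Tuba1c also occurred in another gene. Tubb2a shared 51.1% of its words with Tubb2b, and Tubb4b shared 41% with a pseudogene, Tubb4b-ps1. The shares were 2.8% for Tuba4a, 3.47% for Tubb5, 3.24% for Tubb6 and 0.187% for Vim. Counts of single Tuba1 and Tubb2 genes therefore depend on how the estimation divided shared reads and are uncertain one by one.

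The 250 bases before the start site are shown for 3 genes that were lower in GDF15-treated livers, Tubb2a, Tuba1a and Vim, and for the 1 that was higher, Tuba4a. They are RefSeq sequences of GRCm38.p6, read 5′ to 3′ on the strand of the gene, and 8 of the 10 genes had an entry, without Tubb2b and Tubb6. Capitals mark matches on either strand to TATAA (the TATA core), CCAAT (the CCAAT box), GGGCGG (the GC box) or TGACGTCA (the cyclic AMP response element), motifs that were chosen after the sequences had been seen. The windows are chr13:34078009-34078258 for Tubb2a, chr15:98953502-98953751 for Tuba1a, chr2:13574061-13574310 for Vim and chr1:75219295-75219544 for Tuba4a. Those of Tuba1a, Vim and Tuba4a lie partly or wholly inside the GENCODE span of the gene, because RefSeq places the start elsewhere.
Tubb2a: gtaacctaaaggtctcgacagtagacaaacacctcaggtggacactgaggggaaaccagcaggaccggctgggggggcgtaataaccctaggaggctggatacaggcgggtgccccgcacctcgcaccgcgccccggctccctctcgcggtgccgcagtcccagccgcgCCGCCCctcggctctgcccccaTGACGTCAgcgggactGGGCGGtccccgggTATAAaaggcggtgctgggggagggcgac
Tuba1a: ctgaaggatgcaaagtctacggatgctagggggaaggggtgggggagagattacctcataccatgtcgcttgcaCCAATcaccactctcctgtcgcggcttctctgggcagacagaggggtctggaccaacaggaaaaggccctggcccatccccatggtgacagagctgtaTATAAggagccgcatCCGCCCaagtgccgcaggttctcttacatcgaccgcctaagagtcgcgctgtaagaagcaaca
Vim: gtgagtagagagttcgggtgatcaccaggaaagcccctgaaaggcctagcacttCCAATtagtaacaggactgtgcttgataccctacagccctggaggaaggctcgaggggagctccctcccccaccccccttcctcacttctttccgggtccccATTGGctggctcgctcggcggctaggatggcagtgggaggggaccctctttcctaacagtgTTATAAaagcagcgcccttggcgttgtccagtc
Tuba4a: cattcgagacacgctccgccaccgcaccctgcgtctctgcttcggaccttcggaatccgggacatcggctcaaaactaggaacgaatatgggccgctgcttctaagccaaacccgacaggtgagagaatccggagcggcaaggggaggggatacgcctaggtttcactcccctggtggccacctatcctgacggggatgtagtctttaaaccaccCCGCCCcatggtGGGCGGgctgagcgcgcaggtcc

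Tubb2a had a TATA core 29 bases before its start, a GC box at 81 and another at 43 bases, and the 8-base element TGACGTCA at 59 bases. Tuba1a had a TATA core at 78 bases and Vim had overlapping matches at 33 and 32 bases, the same letters read on both strands. Tuba4a had no TATA core in this window and had GC boxes at 35 and 23 bases. Of 32851 RefSeq promoters cut to the same 250 bases, 22.8% held TATAA, 33.8% CCAAT, 32.7% GGGCGG and 1.55% TGACGTCA. Among the 8 promoters of these genes, 3 held TATAA, 5 CCAAT, 5 GGGCGG and 1 TGACGTCA. The AP-1 motif TGANTCA was in 6.75% of all promoters and in 0 of the 8. These matches are a description of letters and not of bound sites.

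Summed over genes, vehicle libraries held 18059478 to 23215915 counts, those of GDF15-treated mice 16508864 to 25001486 and those of pair-fed mice 17180057 to 35301853. The 10 genes took 0.0950% to 0.133% of the counts in vehicle libraries, 0.0471% to 0.0922% in GDF15 libraries and 0.0564% to 0.221% in pair-fed libraries. Replicate numbers 1 to 3 and 4 to 6 stood apart in depth in the GDF15 and pair-fed groups, in opposite directions, and overlapped in the vehicle group. GDF15 libraries 1 to 3 held 21050932 to 25001486 counts and libraries 4 to 6 held 16508864 to 19108435, whereas pair-fed libraries 1 to 3 held 17180057 to 17926397 and libraries 4 to 6 held 25047723 to 35301853. Vehicle libraries held 18059478 to 20472562 and 18411506 to 23215915. The labels name no batch, so these are called replicate sets, and calls of the 10 genes that differ between them are given within each set. All 10 hepatocyte markers were detected, with a summed normalized count of 1403083 to 2486796 per liver.

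GDF15 treatment went with lower levels of 5 of the 10 genes relative to vehicle, Tubb2a, Tubb2b, Tubb6, Tuba1a and Vim, and with a higher level of 1, Tuba4a. A call means a DESeq2 adjusted p under 0.05, and over all 14667 genes tested 17.5% were called lower and 15.8% higher. Because the 10 genes were chosen with earlier results known, their counts beside these shares are a description only. Tuba1b, Tuba1c, Tubb4b and Tubb5 were not called. With a log2 fold change beyond 1 also required, 3 genes remained, Tubb2a, Tubb2b and Tubb6, all lower, where 5.37% of all genes were called lower and 0.9% higher. In all 5 lower genes every GDF15-treated liver was below every vehicle liver, which held for 6.94% of all genes, and in 0 genes every GDF15-treated liver was above, which held for 5.75%. The median log2 fold change was -0.50 over the 10 genes and 0.00 over all genes tested.

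**Figure D1:**
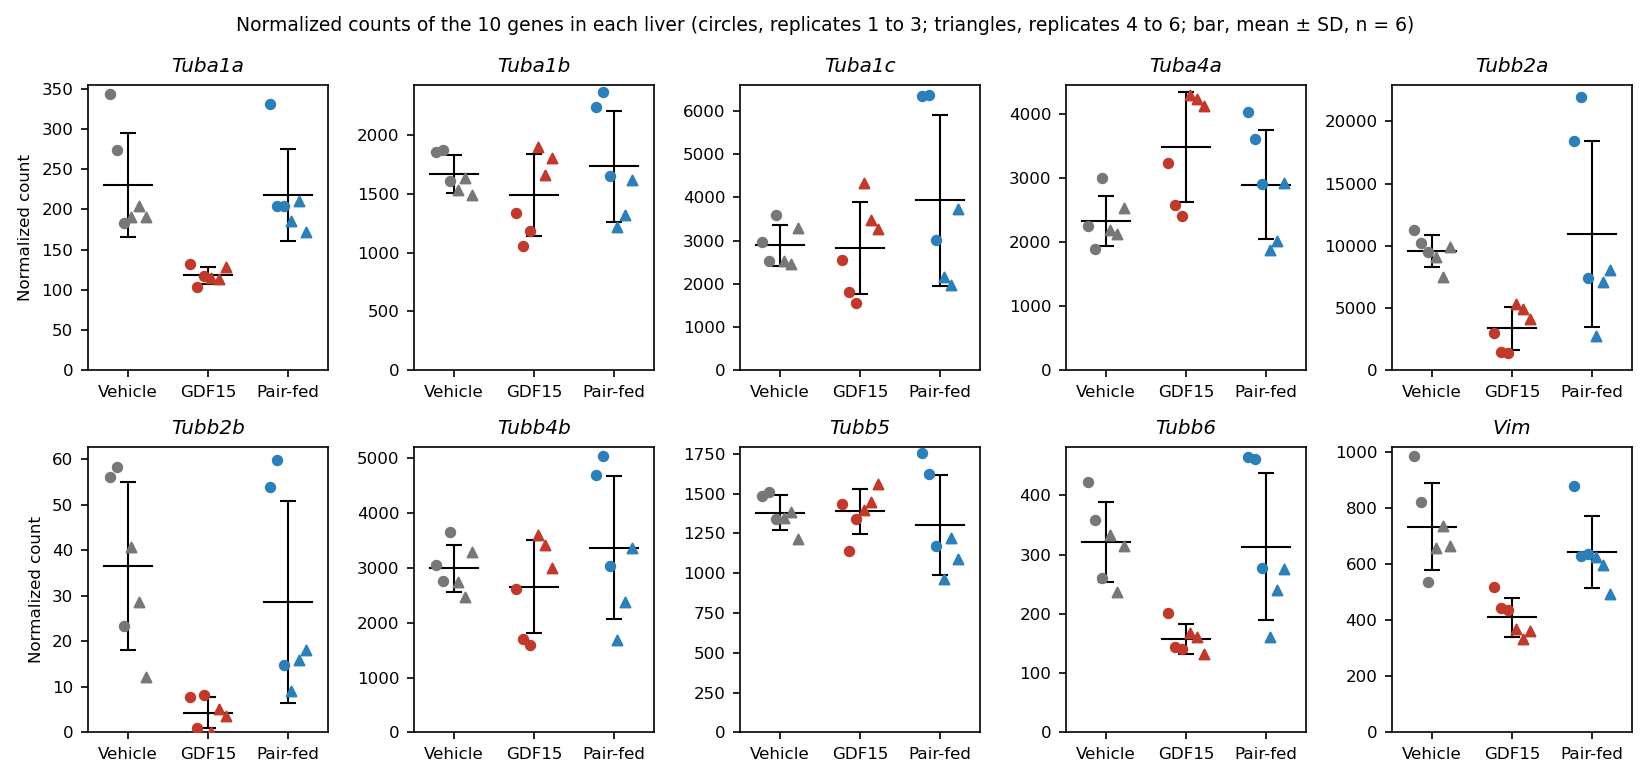
Normalized counts (y axis, linear from 0) of the 10 genes in each liver of the vehicle, GDF15 and pair-fed groups (x axis), with circles for replicates 1 to 3, triangles for replicates 4 to 6 and bars for the mean ± SD (n = 6). GDF15 points of Tuba1a, Tubb2a, Tubb2b, Tubb6 and Vim sit below every vehicle point, and Tubb2a in pair-fed livers runs from 2766 to 21944.

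Among the beta-tubulins, Tubb2a was the most abundant. Its coefficient of variation was 13.2% in vehicle, 50.6% in GDF15-treated and 68.4% in pair-fed livers. The normalized count, the count divided by the size factor of the library, was 7454 to 11246 in vehicle livers (median 9703), 1358 to 5289 in GDF15-treated livers (median 3546) and 2766 to 21944 in pair-fed livers (median 7733). The GDF15 and vehicle ranges did not overlap. Means were 3353 ± 1695 (SD, n = 6) with GDF15 and 9576 ± 1264 with vehicle, a log2 fold change of -1.51 ± 0.41 (SE, adjusted p = 0.00165). Relative to pair-fed livers, whose mean was 10939 ± 7477, the log2 fold change was -1.71 ± 0.41 (adjusted p = 0.000439), although 2 of 6 GDF15-treated livers were below every pair-fed liver. Pair-fed replicates 1 and 2, at 18409 and 21944, were the highest of the 18 and pair-fed replicate 4, at 2766, was lower than 4 of the GDF15-treated livers. The fall also differed in size between the replicate sets. Within replicates 1 to 3 the log2 fold change was -2.41 relative to vehicle (adjusted p = 6.70e-06) and -3.04 relative to pair-fed livers (adjusted p = 5.11e-09). Within replicates 4 to 6 it was -0.89 relative to vehicle (adjusted p = 0.0931) and -0.32 relative to pair-fed livers (adjusted p = 0.649). The difference between the sets was not tested, nor was the part of depth, but no gene of the 10 changed its call when all libraries were thinned to the smallest total.

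Tubb2b, known mostly from neurons, was close to the limit of detection. Its normalized counts were 12.2 to 58.3 in vehicle livers (median 34.7), 0 to 8.19 in GDF15-treated livers (median 4.41) and 9.07 to 59.7 in pair-fed livers (median 16.9). GDF15-treated livers were below all others, with 9, 1, 8, 0, 4 and 3 counts as deposited in replicates 1 to 6. A library with 0 counts allows up to 3 counts, and 3 of these 6 libraries were at or under that floor. The log2 fold change was -3.05 ± 0.57 relative to vehicle (adjusted p = 1.73e-06) and -2.68 ± 0.57 relative to pair-fed livers (adjusted p = 4.86e-05). Its counts amounted to 0.378% ± 0.167 of those of Tubb2a in vehicle livers, and since the transcripts share words its value rests on how reads of Tubb2a were divided. With both genes summed into 1 row, the log2 fold change was -1.52 ± 0.41 relative to vehicle (adjusted p = 0.00160).

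Tubb6, a broadly expressed beta-tubulin isotype, was 237 to 423 in vehicle livers (median 324), 133 to 201 in GDF15-treated livers (median 152) and 161 to 465 in pair-fed livers (median 277). The GDF15 values were below all vehicle values, and 3 of the 6 were below all pair-fed values. The log2 fold change was -1.03 ± 0.22 relative to vehicle (adjusted p = 2.46e-05) and -0.99 ± 0.21 relative to pair-fed livers (adjusted p = 7.34e-05). Within replicates 4 to 6 the second value was -0.55 (adjusted p = 0.0703), and within replicates 1 to 3 it was -1.31 (adjusted p = 3.93e-06).

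Tubb4b and Tubb5, isotypes found in most cells, were not called in either GDF15 comparison. Tubb4b was 2462 to 3648 in vehicle livers, 1591 to 3595 in GDF15-treated livers and 1676 to 5034 in pair-fed livers. Its log2 fold change relative to vehicle was -0.17 (95% interval -0.63 to 0.29, adjusted p = 0.609), which leaves room for a fall of 0.63 on the log2 scale. Tubb5 was the steadiest of the 10 in vehicle livers, with a coefficient of variation of 7.90%, and spanned 1212 to 1512 in that group, 1140 to 1561 in GDF15-treated livers and 962 to 1754 in pair-fed livers. Its log2 fold change relative to vehicle was 0.01 (95% interval -0.24 to 0.25, adjusted p = 0.974), the narrowest interval of the 10. The replicate sets went opposite ways for Tubb4b, at -0.67 within replicates 1 to 3 (adjusted p = 0.0131) and 0.24 within replicates 4 to 6 (adjusted p = 0.481) relative to vehicle. For Tubb4b the values relative to pair-fed livers were -1.11 (adjusted p = 1.19e-05) and 0.44 (adjusted p = 0.155). Tubb5 was called higher than in pair-fed livers within replicates 4 to 6, by 0.43 on the log2 scale (adjusted p = 0.00195).

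**Figure D2:**
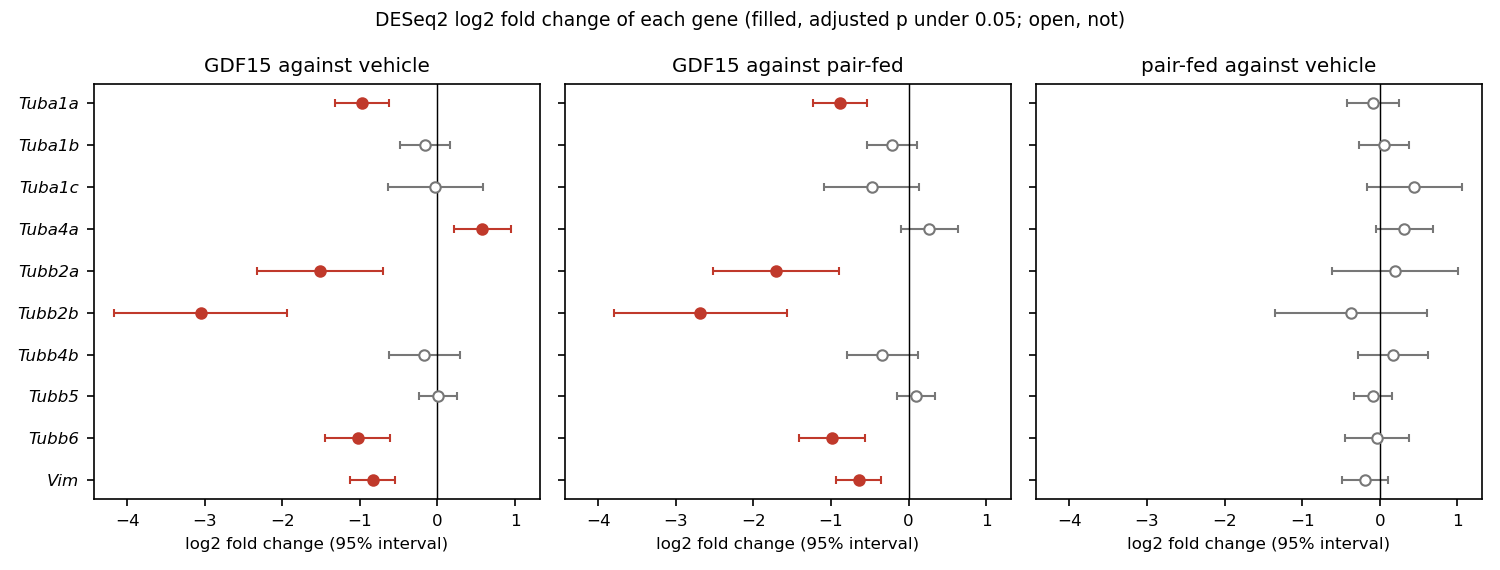
DESeq2 log2 fold changes (x axis) of the 10 genes (y axis) for GDF15 against vehicle, GDF15 against pair-fed and pair-fed against vehicle, with 95% intervals and filled points for an adjusted p under 0.05. The filled points are 5 lower and 1 higher gene in the first panel, 5 lower genes in the second and 0 in the third.

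Tuba4a was the one gene of the 10 called higher with GDF15. Its protein differs from most alpha-tubulins in that it is made without the C-terminal tyrosine that other isotypes carry and lose. It was 1890 to 3002 in vehicle livers (median 2218), 2416 to 4304 in GDF15-treated livers (median 3681) and 1872 to 4044 in pair-fed livers (median 2921). The groups overlapped, and 4 of 6 GDF15-treated livers were above every vehicle liver. The log2 fold change was 0.58 ± 0.19 relative to vehicle (adjusted p = 0.00903) and 0.27 ± 0.19 relative to pair-fed livers (adjusted p = 0.303). GDF15 replicates 4 to 6, at 4304, 4245 and 4128, were the 3 highest of all 18 livers. Within replicates 4 to 6 the log2 fold change was 0.89 relative to vehicle (adjusted p = 1.16e-06), and within replicates 1 to 3 it was 0.21 (adjusted p = 0.442). The replicate sets went opposite ways relative to pair-fed livers, with a called 0.90 within replicates 4 to 6 (adjusted p = 1.16e-06) and -0.36 within replicates 1 to 3 (adjusted p = 0.144).

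Tuba1a, an alpha-tubulin gene abundant in the nervous system, was tightly grouped with GDF15 and spread without it. Normalized counts were 183 to 343 in vehicle livers (median 197), 103.3 to 132 in GDF15-treated livers (median 116) and 172 to 331 in pair-fed livers (median 204). Every GDF15-treated liver was below every liver of both other groups. The log2 fold change was -0.97 ± 0.18 relative to vehicle (adjusted p = 8.90e-07) and -0.88 ± 0.18 relative to pair-fed livers (adjusted p = 1.33e-05), and the gene was called in both replicate sets in both comparisons. Tuba1b and Tuba1c, the alpha-tubulins of most cell types, were not called. Tuba1b spanned 1493 to 1874 with vehicle and 1058 to 1898 with GDF15, with a log2 fold change of -0.16 (95% interval -0.49 to 0.16, adjusted p = 0.487). Tuba1c spanned 2449 to 3582 with vehicle and 1549 to 4337 with GDF15, with a log2 fold change of -0.03 (95% interval -0.64 to 0.58, adjusted p = 0.956). For both, GDF15 replicates 1 to 3 lay below replicates 4 to 6. Relative to pair-fed livers, Tuba1b was called lower within replicates 1 to 3 (log2 fold change -0.80, adjusted p = 2.74e-06) and higher within replicates 4 to 6 (0.37, adjusted p = 0.0169). Relative to vehicle its values were -0.57 (adjusted p = 0.00145) and 0.20 (adjusted p = 0.248) in the same order. Tuba1c relative to pair-fed livers was called lower within replicates 1 to 3 (-1.41, adjusted p = 0.000387) and not called within replicates 4 to 6 (0.50, adjusted p = 0.117). With the 3 Tuba1 genes summed, since they share most of their words, the log2 fold change was -0.11 ± 0.23 relative to vehicle (adjusted p = 0.756). Tuba1a made up 3.83% ± 1.06 of the alpha-tubulin level per kb in vehicle livers and 1.95% ± 0.55 in GDF15-treated livers.

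Vim was lower with GDF15 by 43.9% relative to vehicle and by 36.0% relative to pair-fed livers. Its normalized count was 535 to 987 in vehicle livers (median 701), 334 to 519 in GDF15-treated livers (median 402) and 494 to 880 in pair-fed livers (median 628). The GDF15 and vehicle groups did not overlap, and 5 of 6 GDF15-treated livers were below every pair-fed liver. The log2 fold change was -0.83 ± 0.15 relative to vehicle (adjusted p = 6.82e-07) and -0.64 ± 0.15 relative to pair-fed livers (adjusted p = 0.000246). Relative to vehicle it was -0.74 within replicates 1 to 3 (adjusted p = 0.00440) and -0.95 within replicates 4 to 6 (adjusted p = 6.16e-12).

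Markers of several other liver cell types were lower too. Over all genes tested, 17.5% were called lower and 15.8% higher relative to vehicle. Of 12 genes that mark stellate cells and fibroblasts, 11 were called lower and 0 higher relative to vehicle, among them the collagen genes Col1a1 (log2 fold change -2.51) and Col3a1 (-2.21). Their summed normalized count was 10421 to 17438 in vehicle, 5241 to 7883 in GDF15 and 9410 to 14423 in pair-fed livers, and 0 of the 12 were at 0 in every sample. Of 12 leukocyte markers 9 were called lower, including Gpnmb (-2.60) and Trem2 (-1.51) of lipid-associated macrophages, with sums of 2637 to 4964 in vehicle, 1660 to 3445 in GDF15 and 2612 to 4312 in pair-fed livers. Of 8 cholangiocyte markers 7 were called lower, with sums of 2787 to 9109 in vehicle, 1398 to 2449 in GDF15 and 2520 to 6473 in pair-fed livers. All 12 markers of dividing cells were called lower, and the proliferation marker Mki67 fell by 2.08 on the log2 scale. Of 10 endothelial markers, 1 was called lower (Lyve1) and 1 higher (Clec4g), a smaller share in both directions than over all genes. Hepatocyte markers went the other way, with 7 of 10 called higher and 1 lower. Set against pair-fed livers, 9 of the 12 stellate cell and fibroblast markers and 8 of the 12 leukocyte markers were called lower. The same held for 10 of the 12 markers of dividing cells, 1 of the 10 endothelial markers and 1 of the 8 cholangiocyte markers. Of the 10 hepatocyte markers 7 were called higher. Over all genes 13.8% were lower and 13.3% higher in that comparison, so the endothelial and cholangiocyte counts were no larger a share. The median log2 fold change of the cholangiocyte markers was -0.66 in pair-fed relative to vehicle livers, where 0 of them were called. In these bulk samples fewer cells of a type and less RNA per cell cannot be told apart, and the part of cell composition in the lower Vim and tubulin levels was not tested.

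GDF15-treated livers were set against pair-fed livers with the same treated mice, so the 2 comparisons share their GDF15 samples. Relative to pair-fed livers, 5 of the 10 genes were called lower, Tubb2a, Tubb2b, Tubb6, Tuba1a and Vim, and 0 higher, where 13.8% of all 14353 genes tested were called lower and 13.3% higher. With a log2 fold change beyond 1 as well, 2 were called, Tubb2a and Tubb2b, where 2.75% of all genes were called lower. Only Tuba1a and Tubb2b had all GDF15 values below all pair-fed values, which held for 5.23% of all genes, and 0 had all of them above, which held for 4.86%. Higher calls beyond 1 were 0 of the 10 and 0.627% of all genes. Within replicates 1 to 3, 8 of the 10 genes were called lower and 0 higher relative to pair-fed livers. Within replicates 4 to 6, 3 were called lower (Tuba1a, Tubb2b and Vim) and 3 higher (Tuba1b, Tuba4a and Tubb5). The share of all genes called in these smaller fits is not given here, so these counts have no background to be read against. Pair-fed and vehicle livers were not separated for any of the 10 genes by DESeq2, with 0 called, 0 at an unadjusted p under 0.05, a lowest adjusted p of 0.998 and 0 called by edgeR. Over all 16242 genes tested in that comparison 0% were called, with 718 at an unadjusted p under 0.05. Groups that did not overlap were 0 of the 10, and over all genes pair-fed livers were all below in 0.0985% and all above in 0.111%. The interval for Tubb2a in pair-fed relative to vehicle livers ran from -0.62 to 1.00 on the log2 scale, so changes within these bounds remain possible with this spread. For Vim it ran from -0.48 to 0.10.

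Compared per kilobase of the longest coding transcript, Tubb2a was the most abundant of the 10 genes in vehicle livers, with a normalized count per kb of 5948 ± 785 (SD, n = 6). It was followed by Tubb4b (1872 ± 269), Tuba1c (1459 ± 237), Tuba1b (956 ± 92.7), Tuba4a (821 ± 137), Tubb5 (521 ± 41.2), Vim (335 ± 71.0), Tubb6 (183 ± 38.2), Tuba1a (128 ± 35.8) and Tubb2b (16.7 ± 8.46). The ranges over livers overlapped between Tubb4b and Tuba1c, between Tuba1b and Tuba4a and between Tubb6 and Tuba1a, and not between the other neighbours. In GDF15-treated livers the level per kb of Tubb2a, 2082 ± 1053, overlapped that of Tubb4b, 1661 ± 533, and Tuba4a (1227 ± 302) stood above Tuba1b (856 ± 199) in all 6 livers. In pair-fed livers Tubb2a was first at 6795 ± 4644 and Vim stood at 294 ± 58.0. The place of Tuba4a depends on its length, since with the median length of its transcripts it ranked 2 in vehicle livers.

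Shares of each isotype in the tubulin messages were then compared within each liver. Tubb2a made up 66.7% to 71.8% of the level per kb of the 5 beta-tubulin genes in vehicle livers, 34.8% to 53.4% in GDF15-treated livers and 53.3% to 77.1% in pair-fed livers. Its mean share was 69.5% ± 2.04 (SD, n = 6) in vehicle, 45.3% ± 8.02 in GDF15-treated and 67.1% ± 8.46 in pair-fed livers. The share of Tubb4b was 21.97% ± 2.40, 38.9% ± 2.61 and 24.4% ± 5.53 in the same order, and that of Tubb5 was 6.17% ± 0.85, 13.4% ± 4.75 and 6.29% ± 2.76. GDF15 and vehicle ranges did not overlap for any of these 3 shares, and GDF15 and pair-fed ranges did not overlap for Tubb4b. The 5 beta shares of a liver add up to the whole, so a lower share of Tubb2a by itself raises the others. Tubb4b and Tubb5 were not called in level in either GDF15 comparison. Among the 4 alpha-tubulins, Tuba4a made up 24.3% ± 2.26 of the level per kb in vehicle, 34.7% ± 1.86 in GDF15-treated and 25.5% ± 2.67 in pair-fed livers. Its lowest GDF15 value, 31.2%, was above the highest of the other groups, 28.5%.

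**Figure D3:**
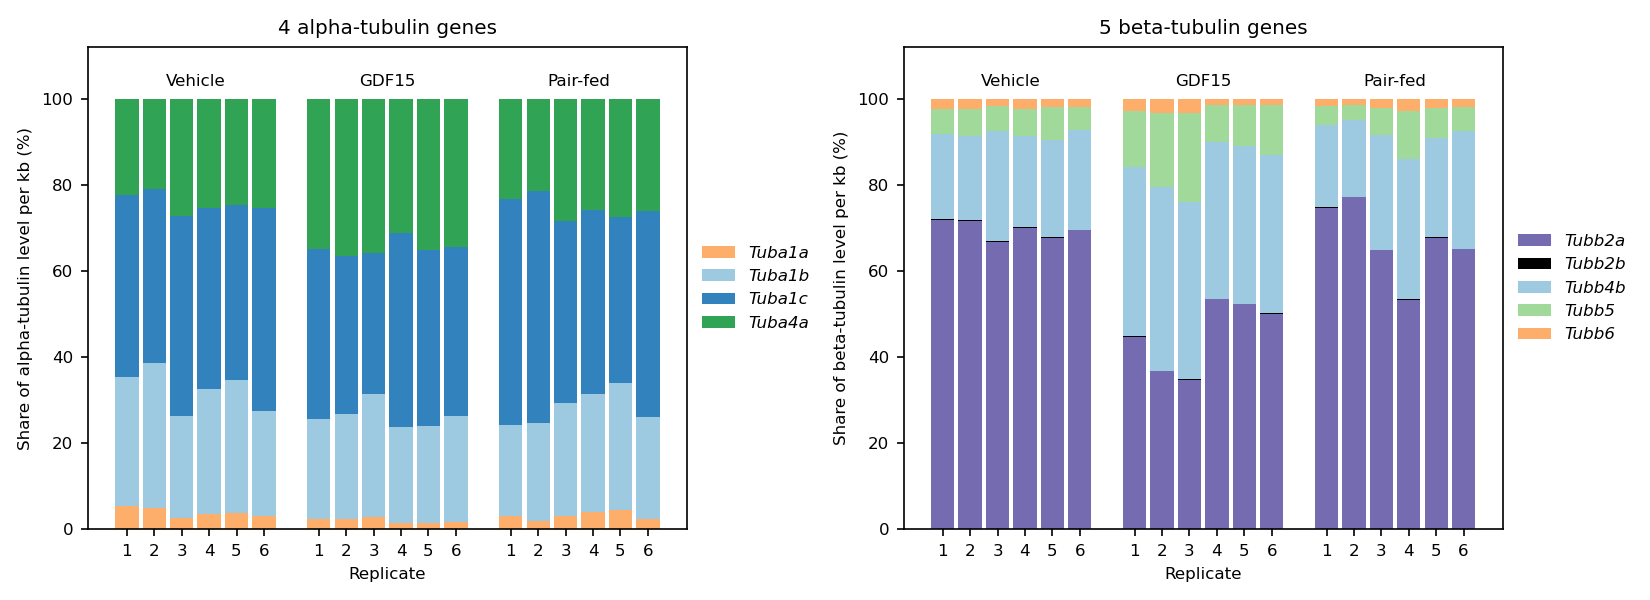
Share (y axis, percent) of each gene in the summed level per kb of the 4 alpha-tubulin genes (left) and the 5 beta-tubulin genes (right), with 1 bar for each liver and replicate numbers on the x axis. Tubb2a fills 66.7% to 71.8% of the beta bars with vehicle and 34.8% to 53.4% with GDF15, and Tuba4a fills 31.2% to 36.6% of the alpha bars with GDF15.

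The beta-tubulin sum per kb was 8540 ± 978 in vehicle, 4359 ± 1624 in GDF15-treated and 9584 ± 5627 in pair-fed livers, while the alpha-tubulin sum was 3363 ± 342, 3577 ± 1024 and 4121 ± 1577. The ratio of the beta to the alpha sum was thus 2.25 to 2.80 in vehicle livers, 1.01 to 1.37 in GDF15-treated livers and 1.26 to 2.97 in pair-fed livers. GDF15 and vehicle ratios did not overlap. These values depend on the lengths used. With median in place of longest transcript lengths, a choice added after the data were seen, the ratio was 1.68 ± 0.20 in vehicle, 0.703 ± 0.081 in GDF15-treated and 1.43 ± 0.41 in pair-fed livers. The share of Tuba4a was then 51.8% ± 3.11, 64.0% ± 1.94 and 53.3% ± 3.58, and the GDF15 and vehicle ranges again did not overlap for the ratio or for the shares of Tuba4a, Tubb2a, Tubb4b and Tubb5. Tuba4a relative to Tubb4b, a ratio of normalized counts that no transcript length enters, was 0.779 ± 0.064 in vehicle, 1.35 ± 0.14 in GDF15-treated and 0.895 ± 0.133 in pair-fed livers. It spanned 1.20 to 1.52 in GDF15-treated livers and 0.684 to 1.12 in the 12 others. Tubb2a relative to Tubb4b was 3.23 ± 0.43, 1.19 ± 0.28 and 2.95 ± 1.02, with GDF15 values of 0.854 to 1.47 and a lowest value in the other groups of 1.65. These shares and ratios are descriptions of the same values as the tests above.

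Within groups the genes did not vary as one. After the mean of each group was removed from log2(normalized count + 1), Tuba1c, Tuba4a, Tubb2a and Tubb4b varied together, with Pearson r of 0.862 to 0.962 over the 18 samples in their 6 pairs (median 0.951). Vim varied apart from these 4, with r of -0.19 to 0.02. Its highest r with a tubulin was 0.807, with Tuba1a. Over all 45 pairs the median r was 0.611. With the mean of each replicate set of 3 removed instead, r was 0.639 to 0.904 among the 4 tubulins and 0.935 between Vim and Tuba1a. These samples share library and depth for every gene, and r is given as a description.

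**Figure D4:**
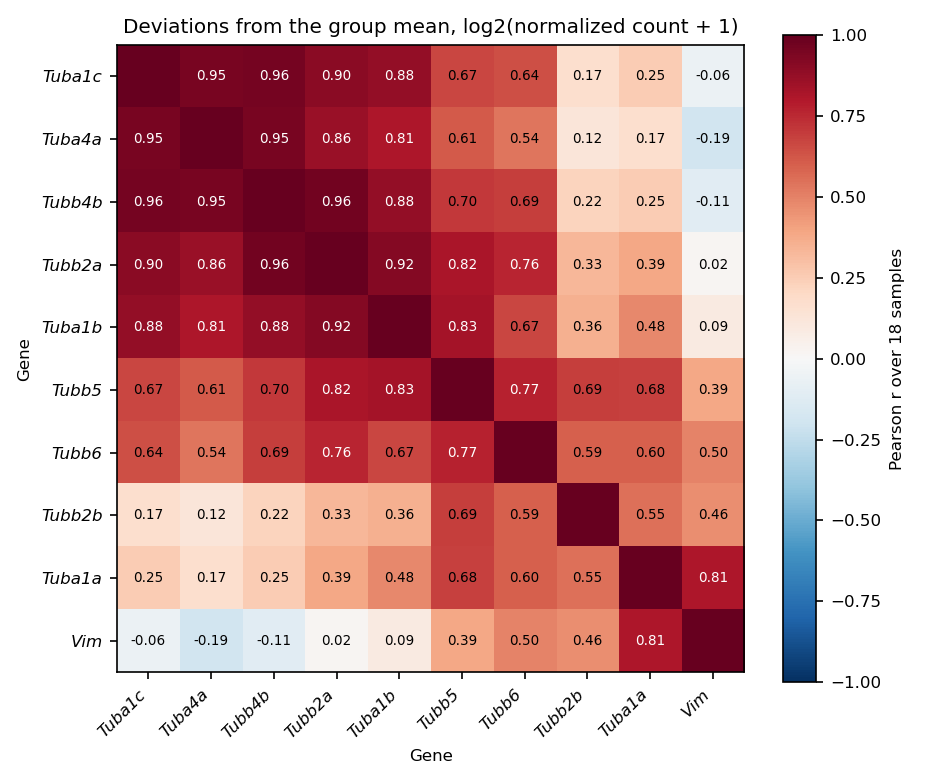
Pearson r over the 18 samples between each pair of the 10 genes (both axes) after group means were removed from log2(normalized count + 1), with red for positive and blue for negative values. Tuba1c, Tuba4a, Tubb4b and Tubb2a form a block of 0.862 to 0.962, and Vim has its highest value, 0.807, with Tuba1a.

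The genes most like Vim by the same measure, among the 10874 genes that averaged 50 normalized counts or more, were Cavin1 (r = 0.926), which encodes a coat protein of caveolae, Col6a3 (0.912), a collagen VI chain, Dpt (0.909), the matrix protein dermatopontin, Loxl1 (0.906), an elastin crosslinking enzyme, and Timp2 (0.905), a metalloproteinase inhibitor. All 5 were called lower with GDF15 in both comparisons, at -0.76 to -1.50 relative to vehicle. The genes most like the mean of the 8 tubulins above that level were Jpt2 (0.956), Septin9 (0.942), a filament-forming GTPase, Irf2bp2 (0.936), a transcriptional corepressor, Sorbs2 (0.921), an actin adaptor, and Cxadr (0.920), a junction protein. Of these, Septin9 was called lower with GDF15, at -0.48 relative to vehicle (adjusted p = 0.00197), and the other 4 were not called.

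Beside the 10 genes, lists for the rest of the microtubule system were counted. Over all genes tested, 17.5% were called lower and 15.8% higher relative to vehicle. Of 11 other tubulin genes, 7 were tested relative to vehicle, with 1 lower and 1 higher. Tuba8, an alpha-tubulin, fell from 71.3 ± 29.6 to 24.2 ± 9.80 normalized counts (log2 fold change -1.56, adjusted p = 0.00182), and Tubg1, the gamma-tubulin that nucleates microtubules, rose by 0.17 on the log2 scale (adjusted p = 0.0330). The list for tubulin folding held 21 genes, namely chaperones, cofactors and the autoregulation factor Ttc5, which was not called (adjusted p = 0.0528). Of the 21, 2 were called lower and 7 higher, all within a log2 fold change of 1, with a median of 0.05. Tcp1, a subunit of the CCT chaperonin, rose by 0.23 (adjusted p = 0.000897) and the prefoldin subunits Pfdn2 and Pfdn6 each rose by 0.26 (adjusted p = 0.00148 and 0.000782). Tbcd, a cofactor of beta-tubulin folding, fell by 0.27 (adjusted p = 0.000453). Of 19 tested genes for enzymes that modify tubulin, 1 was lower and 2 higher, a smaller share in both directions than the 17.5% and 15.8% over all genes. Ttl, which adds back the C-terminal tyrosine of alpha-tubulin, fell by 0.32 (adjusted p = 0.00375), the polyglutamylase gene Ttll4 rose by 0.30 (adjusted p = 0.000521) and the deacetylase gene Sirt2 rose by 0.15 (adjusted p = 0.0203). All 3 were called in the same direction relative to pair-fed livers, at -0.37, 0.26 and 0.17.

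Of 30 tested genes for microtubule-binding proteins and motors, 10 were called lower and 2 higher relative to vehicle. The shares over all genes were 17.5% and 15.8%. The median log2 fold change of the list was -0.14. Clip2, a plus-end linker, fell by 1.46 (adjusted p = 4.16e-11), Mapt, which encodes tau, fell by 1.27 (adjusted p = 2.08e-07), Stmn1, which sequesters tubulin dimers, fell by 1.18 (adjusted p = 1.68e-10) and Mapre3, an end-binding protein, fell by 0.45 (adjusted p = 6.76e-05). Relative to pair-fed livers these 4 were also lower, by 1.27, 1.30, 0.69 and 0.41 on the log2 scale. Over the list 7 genes were then lower and 2 higher, beside 13.8% and 13.3% over all genes. Fewer genes of this list were called lower within each replicate set alone, 6 within replicates 1 to 3 and 4 within replicates 4 to 6. The difference between the sets was not tested. Those are smaller fits, for which no share over all genes is given.

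The other filament systems were counted in the same way, beside the 17.5% lower and 15.8% higher over all genes relative to vehicle. Of 15 tested genes for other intermediate filaments and their linkers, 9 were called lower and 0 higher relative to vehicle, with a median log2 fold change of -0.65. Krt8 and Krt18, the hepatocyte keratins, fell from 10472 ± 1451 to 5609 ± 536 and from 6189 ± 748 to 3952 ± 594 normalized counts (log2 fold changes -0.90 and -0.65, adjusted p = 4.62e-09 and 2.25e-05). Krt19, a cholangiocyte keratin, fell by 1.03 (adjusted p = 0.0137), and Nes, which encodes nestin, fell by 0.83 (adjusted p = 0.000254). Relative to pair-fed livers Krt8, Krt18 and Nes were lower by 0.83, 0.63 and 0.98, whereas Krt19 was not called at -0.25 (adjusted p = 0.643). Of 33 actin cytoskeleton genes, 21 were called lower and 2 higher relative to vehicle, with a median of -0.65. Tagln2, an actin-bundling protein, fell by 1.27, the actin-sequestering Tmsb10 by 1.17, the capping protein gene Capg by 1.15 and the smooth muscle gene Tagln by 0.98, with adjusted p of 3.56e-09, 1.44e-09, 3.86e-05 and 3.09e-05. Of the 33, relative to pair-fed livers, 17 were lower and 1 higher, beside 13.8% and 13.3% over all genes. In pair-fed relative to vehicle livers 0 genes of any of these lists were called by DESeq2.

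**Figure D5:**
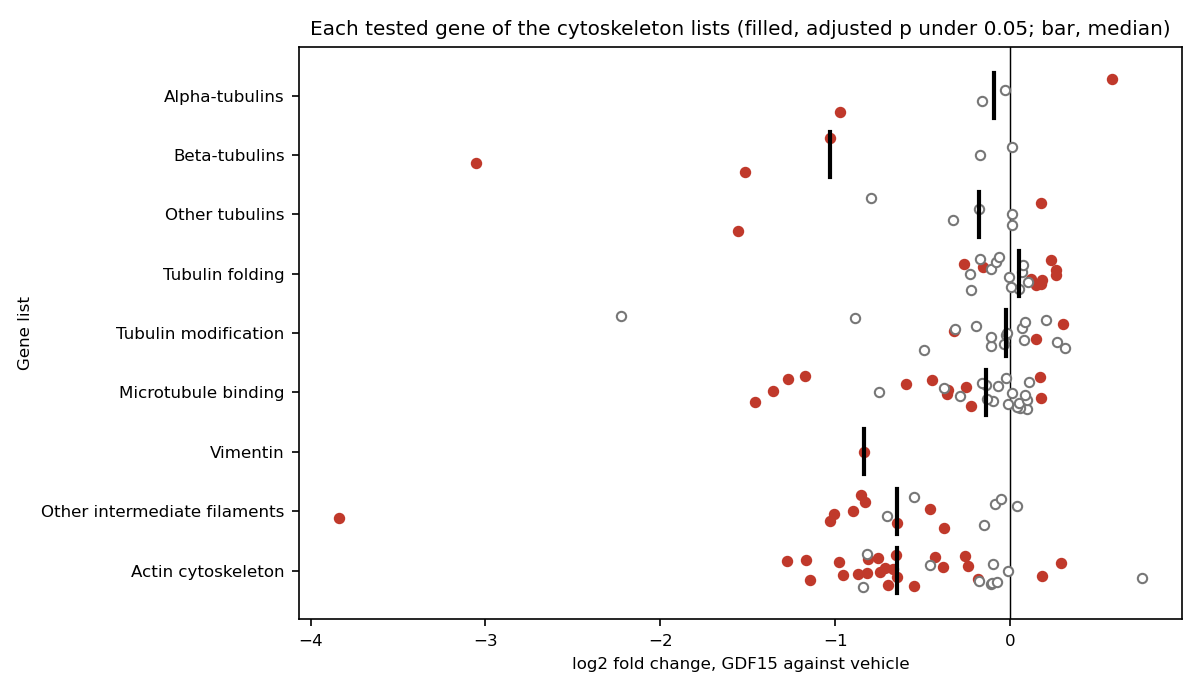
DESeq2 log2 fold changes of GDF15 against vehicle (x axis) for every tested gene of 9 cytoskeleton lists (y axis), filled where the adjusted p is under 0.05, with a bar at the median of each list. Medians are -1.03 for the 5 beta-tubulins, -0.65 for other intermediate filaments and -0.65 for actin genes, beside 0.05 for tubulin folding and -0.03 for tubulin modification.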

How the data were processed

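RNA-seq of 18 livers was analysed from 1 table. The authors trimmed reads with Trim Galore, quantified them with Salmon against mm10 (per the submitters' processing notes, without versions) and deposited estimated counts rounded to whole numbers per gene symbol, from a strand-specific kit. Of 16245 genes the lowest row total was 5. Total counts were 16508864 to 35301853, and a floor of 3 counts is 0.0850 to 0.182 CPM, for counting error only. Groups and replicate numbers came from the titles, and p-values measure only the spread between these samples. All columns were used.

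DESeq2 (1.42.0, R 4.3.3), the tool named in the study's methods, was fitted to all genes and 18 samples with group as the only factor and the Wald test. Adjusted p-values are Benjamini-Hochberg values over all genes tested, called under 0.05. The procedure was tested on simulated data for GDF15 against vehicle over 16245 genes. It recovered 96% of 100 changes of 1 and 80% of 100 changes of 0.5 on the log2 scale, with 15 calls among unchanged genes. Changes were placed only in genes that averaged 50 normalized counts or more, and no replicate sets were simulated. The recovery therefore does not cover Tubb2b, which averaged 23.1, or differences between replicate sets. Levels between genes used normalized counts per kb of the longest coding transcript of GENCODE vM21 (GRCm38). Correlations used log2(normalized count + 1).

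The members and gene lists were chosen with earlier results of these data known. From each list up to 4 genes were named, with the largest absolute log2 fold change relative to vehicle among called genes that averaged 50 normalized counts or more. A second call, after the methods of the study, also required an absolute log2 fold change above 1. The alternatives were edgeR 4.0.16, TMM size factors, filters on low counts, no independent filtering, thinning to the smallest library, fits of the 12 samples compared, summed near-identical genes, a fold-change threshold, a replicate block, each replicate set and each sample left out. Removing the means of replicate sets before correlation, and median lengths for shares, were added after seeing the data.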

Additional observations from a re-analysis of the deposited data

Results flagged for a closer look

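In 2 of 30 sets of 6 values, 1 gene in 1 group each, a single liver stood far from the other 5, where chance alone gives about 1.5. Pair-fed replicate 1 had the highest Tuba1a value of its group, a normalized count of 330.7, with the next at 210.9. The same liver had the highest Vim value of its group, 880.2, with the next at 636.1. Without any one liver of either group, Tuba1a and Vim were still called lower with GDF15 than in pair-fed livers, with log2 fold changes of -0.94 to -0.72 and -0.72 to -0.53.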

How the results depend on the processing

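The number of the 10 genes called was 6 relative to vehicle, 5 relative to pair-fed livers and 0 between pair-fed and vehicle. Leaving out each sample in turn gave 6 to 6, 5 to 5 and 0 to 0. A threshold of 1 on the log2 fold change left 3 and 2 genes. Summing near-identical genes left 3 calls relative to pair-fed livers, of 7 rows by construction, and replicates 1 to 3 alone gave 8, all lower, whereas replicates 4 to 6 alone gave 6, of which 3 were lower and 3 higher. Within replicates 4 to 6 Tuba1b relative to pair-fed livers reversed, to 0.37 (adjusted p = 0.0169), and the cause was not tested. Each replicate set has only 3 samples a group, and the share of all genes called within it is not given here. Over the other alternatives, 297 values kept direction and side of the threshold, 10 lost and 7 gained a call. With the replicate block the counts were 6, 5 and 0 again and no gene changed its call. The higher call of Tuba4a relative to vehicle then stood at the threshold (DESeq2 adjusted p = 0.0499). Same-numbered samples of GDF15 and vehicle deviated together with r of -0.25 to 0.27, over 0.1 in 2 of 6 pairs, while for GDF15 and pair-fed r exceeded 0.1 in 3 of 6 pairs and for vehicle and pair-fed r was 0.044 to 0.596, over 0.1 in 4 of 6. No comparison had all 6 over 0.1, so the numbers were not taken as pairs. Among the list counts, 18 of those with a sample left out moved by over 1.5 times and 522 did not, and under the other alternatives 46 moved and 404 did not. The higher Tubg1 call relative to vehicle was lost without vehicle replicate 1, 2, 4 or 5 or GDF15 replicate 1, 4, 5 or 6, leaving 1 call among the other tubulins, which had 2 relative to pair-fed livers without pair-fed replicate 5. Calls for tubulin modification were 5 relative to vehicle without GDF15 replicate 6, and 3 relative to pair-fed livers without GDF15 replicate 4 or pair-fed replicate 2 or 6. Endothelial calls were 1 relative to vehicle without GDF15 replicate 5, and 2 to 3 relative to pair-fed livers without GDF15 replicate 3, 5 or 6. Cholangiocyte calls relative to vehicle were 4 without vehicle replicate 1. With median transcript lengths the order per kb in vehicle livers put Tuba4a at 2, Tubb4b at 3, Tuba1c at 4 and Tuba1b at 5. Depth limits Tubb2b, at 0 to 9 counts with GDF15.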
